A study of Homo sapiens with 6 samples.

Results

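DNA methylation in mammalian cells is laid down by DNA methyltransferases, copied after replication with the help of UHRF1, and removed by a route that starts with the TET dioxygenases. A second silencing system, Polycomb repressive complex 2 (PRC2), methylates histone H3 at lysine H3K27 through its catalytic subunit EZH2, which works only together with EED and SUZ12. Both systems silence developmental and tumour suppressor genes in colorectal cancer. The transcripts of 10 genes of these systems were followed here: DNMT1, DNMT3A, DNMT3B and UHRF1, the dioxygenase genes TET1, TET2 and TET3, and the PRC2 genes EZH2, EED and SUZ12. They were selected from the table by gene symbol, and all 10 were found among the 20729 genes of the count table.

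The libraries came from cells that the labels call SW620, a line long established from a human colorectal tumour. Of 6 RNA-seq libraries, 3 were from cells given a control siRNA (siNC) and 3 from cells given an siRNA against OSBPL3 (siOSBPL3), a gene for a lipid-transfer protein. No further treatment, time or dose is given in the sources used here, so the design allows the single contrast of siOSBPL3 with siNC. No label states whether the replicates were cultured separately, and the p-values therefore reflect only how far these libraries lie from each other, which can be technical.

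OSBPL3 itself stood at 179, 174 and 175 CPM (counts per 1e6 counts, with library sizes scaled by TMM) in the siNC libraries and at 40.2, 12.2 and 15.1 CPM in the siOSBPL3 libraries. Replicate 1 of siOSBPL3 thus kept the most transcript, and the log2 fold change of -2.97 ± 0.48 (SE, n = 3 each; edgeR adjusted p = 0.0016) was -3.68 without it and -2.59 with a correction of each library for transcript GC content and length. Total counts ran from 30040020 to 39701340 per library. The 2 groups stood far apart: log2 CPM correlated across genes at 0.992 among siNC libraries, at 0.984 to 0.989 among siOSBPL3 libraries and at 0.745 to 0.751 between groups. At the extremes, 86 genes had at least 5 CPM in every siNC library and at most 3 counts over all siOSBPL3 libraries, and 70 had the reverse pattern. Across genes the log2 fold change also followed transcript GC content (Spearman 0.385) and length (-0.203), and a fit corrected for both was run as an alternative; the source of that trend was not tested. Of 14 colorectal epithelial markers fixed for this check, EPCAM (516 and 620 CPM) and KRT8 (2997 and 2383 CPM) were abundant in siNC and siOSBPL3. The intestinal transcription factor gene CDX2 stood at 1.15 CPM in siNC and at 63.5 CPM in siOSBPL3, the brush border gene VIL1 at 482 and 62.6 CPM, and KRT20 at 0.206 and 0.0365 CPM, while CDX1 had no count in siNC. The summed level of the 14 markers was 7252 to 7330 CPM in siNC and 5018 to 6169 CPM in siOSBPL3. Of the 12 of them tested, 6 were higher, 4 lower and 2 not called at an edgeR adjusted p of 0.05. Of all genes tested 80.2% were called. Of the markers of other cells, 6 fibroblast genes in the table summed to 69.9 to 74.4 CPM in siNC and 3.46 to 5.95 CPM in siOSBPL3, and LUM, with no count in siOSBPL3, made up most of the siNC sum. The leukocyte genes summed to 19.8 to 22.2 and 9.46 to 13.9 CPM, with PTPRC and CD3E below 0.25 CPM in every library. Of the 4 leukocyte genes tested, CD68 (19.0 and 5.87 CPM) and LYZ (1.93 and 0.184 CPM) were lower in siOSBPL3, and CD14 (0.278 and 3.06 CPM) and ITGAM (0.0213 and 2.05 CPM) were higher. The 3 endothelial genes in the table summed to 1.39 to 2.37 and 0.219 to 0.803 CPM. Whether both groups held the same cells cannot be told apart from an effect of the siRNA with these libraries. In bulk RNA, fewer cells of a type and less RNA per cell cannot be told apart either.

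Promoter sequence is shown first, because UHRF1, DNMT1 and EZH2 are known to be expressed with the cell cycle under E2F factors. The 22 promoters that RefSeq lists for the 10 genes (GRCh38.p14, 250 bases before to 50 after each start) were searched on both strands for the E2F core in its forms TTCGCGC or TTGGCGC or TTCCCGC or TTGCCGC. In all, 6 promoters of 5 genes held 7 matches, which did not overlap. A match stood in 13% of the 35116 promoters of the table, and in at least 1 promoter of 23.8% of the genes tested that have a promoter there. Each match is shown in 30 bases of the gene's strand with the core in capitals, and its first base is counted from the start of transcription. A match is a description of letters and shows no binding.
UHRF1, match at -104 (chr19:4909386-4909415, plus strand): ctctttctcgcTTCCCGCcactgcgtcggc
UHRF1, match at -14 (chr19:4909476-4909505, plus strand): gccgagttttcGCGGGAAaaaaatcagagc
UHRF1, match at -159 of its next start (chr19:4909974-4910003, plus strand): ccgagcccgatTTCGCGCgccctgagttcc
DNMT1, match at -2 (chr19:10194937-10194966, minus strand): catcggtttccGCGCGAAaagccggggcgc
EZH2, match at 3 (chr7:148884271-148884300, minus strand): ggctgccgcgtTTGGCGCtcggtccggtcg
TET3, match at -132 (chr2:73984767-73984796, plus strand): ccctcccctccGCGGGAAccacccccctct
SUZ12, match at -188 (chr17:31936808-31936837, plus strand): gacccctaattTTCCCGCgaattcagttca

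No match was found in the windows of DNMT3A, DNMT3B, TET1, TET2 and EED. The only DNMT3B window belongs to a start inside the gene (chr20:32779852), so its outer end at 32762385 was not searched. The outer ends of UHRF1 (chr19:4903080) and TET3 (chr2:73983631) were not searched either. The first starts searched for them were at 4909501 and 73984910. TET1 is the gene of the set with the largest difference between groups, and the 120 bases before its first start are given for that reason, with no letters in capitals since no core was found.
TET1 (chr10:68560217-68560336, plus strand): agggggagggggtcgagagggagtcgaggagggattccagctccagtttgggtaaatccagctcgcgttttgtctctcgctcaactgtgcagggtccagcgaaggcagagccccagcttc

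All 10 genes passed the filter on low counts, and 8 of them differed between the groups at an adjusted p of 0.05 (edgeR quasi-likelihood test). Of all 15506 genes tested 80.2% did so, so the share among the 10 genes is that of the background. Of the 10 genes 2 rose (UHRF1 and TET2) and 6 fell (DNMT3A, DNMT3B, TET1, TET3, EZH2 and EED), against 40.4% of all genes rising and 39.8% falling. Their median log2 fold change was -0.32, beside -0.00089 for all genes tested. Scaled by library totals in place of TMM, 3 of the 10 genes were higher and 4 lower, and with a correction of each library for the GC content and length of transcripts 2 were higher and 5 lower. In 7 of the 10 genes the values of the groups did not overlap, as in 83% of all genes tested. A change of at least 2-fold that was also called at an adjusted p of 0.05 was seen in 3 genes, TET1, DNMT3B and EZH2. Of all genes tested 48.9% met both conditions. The genes differed in direction and in size, from a 39.3-fold fall of TET1 to rises of 1.60-fold for UHRF1 and TET2. The difference of SUZ12 was within the spread between libraries.

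**Figure D1:**
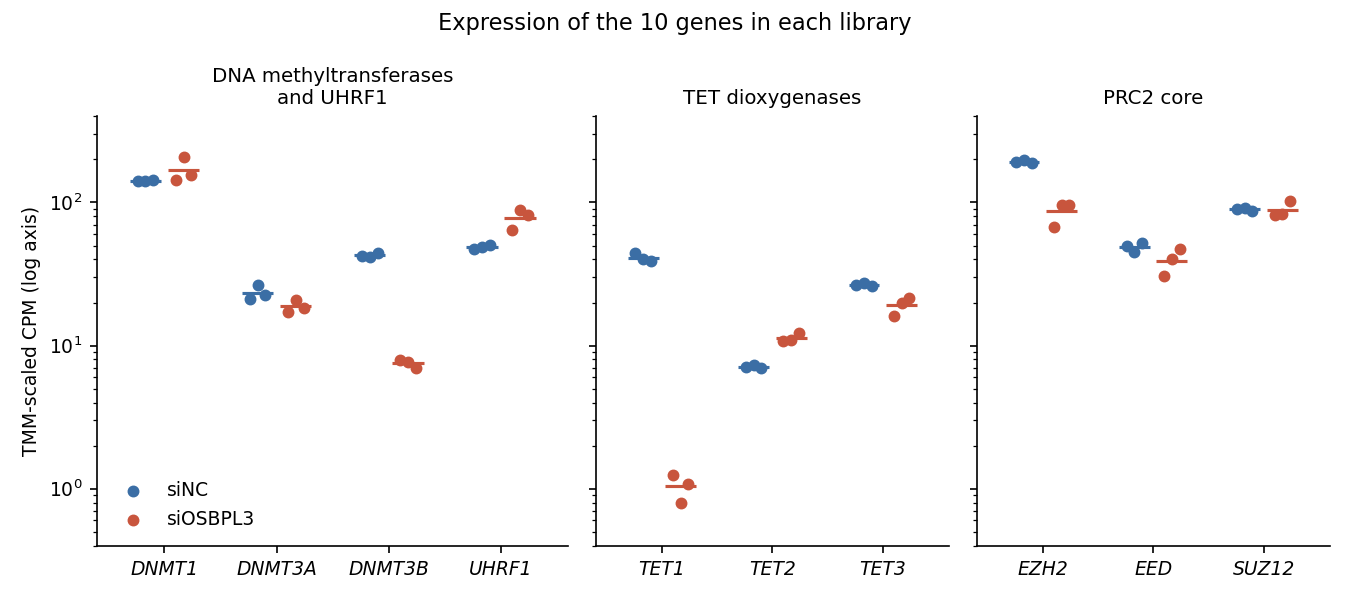
Expression of the 10 genes in each library, in TMM-scaled counts per 1e6 counts on a log axis, with blue points for the 3 siNC and red points for the 3 siOSBPL3 libraries and a bar at each group mean. TET1 drops from about 41.1 to 1.04 CPM and DNMT3B from 42.8 to 7.53 CPM, while the points of DNMT1, EED and SUZ12 overlap between groups.

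Among the writers, the de novo methyltransferase genes fell and the maintenance gene did not pass the test. DNMT3B (chromosome 20, 32762385 to 32809356, GRCh38.p14), which sets new methylation in early development and is often raised in colorectal tumours, was measured at 42.3, 41.8 and 44.4 CPM in siNC and at 7.89, 7.74 and 6.95 CPM in siOSBPL3. The groups were far apart and the libraries of each close together, with a coefficient of variation of 3.28% in siNC and 6.69% in siOSBPL3. The log2 fold change was -2.51 ± 0.10 (SE, n = 3 each; edgeR adjusted p = 6.5e-10), which leaves 17.6% of the siNC level. Of the 15506 genes tested 1332 had a lower log2 fold change, and 81.9% had a smaller change when both directions are counted.

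DNMT3A (chromosome 2, 25227874 to 25342590), its partner in de novo methylation, stood at 21.1, 26.5 and 22.5 CPM in siNC and at 17.3, 20.8 and 18.3 CPM in siOSBPL3. The highest siOSBPL3 library was only just below the lowest siNC library. The fall of 0.32 ± 0.12 on the log2 scale (edgeR adjusted p = 0.030) was not called with library totals (0.054) or without siNC replicate 2 (0.17) or 3 (0.052), or siOSBPL3 replicate 1 (0.059) or 3 (0.072). With the GC and length correction its fitted log2 fold change was -0.56 (edgeR adjusted p = 0.0010), and over all alternatives the adjusted p ran from 0.0010 to 0.17.

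DNMT1 (chromosome 19, 10133346 to 10194953) copies methylation to the new strand after replication. Its level was 141, 142 and 143 CPM in siNC and 143, 206 and 155 CPM in siOSBPL3, so that the siNC libraries were almost equal and siOSBPL3 replicate 2 stood above all others. The log2 fold change of 0.24 ± 0.12 missed the threshold (edgeR adjusted p = 0.085). It passed without siOSBPL3 replicate 1 (0.35, edgeR adjusted p = 0.0031) and with library totals (0.28, 0.037), was 0.07 without siOSBPL3 replicate 2 (0.41), and was 0.04 with the GC and length correction (0.73), the ends of the range of adjusted p over the alternatives being 0.0031 and 0.73.

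UHRF1 (chromosome 19, 4903080 to 4962154) binds hemimethylated DNA and brings DNMT1 to it. It rose from 47.1, 49.1 and 50.2 CPM in siNC to 63.8, 89.0 and 81.9 CPM in siOSBPL3, and every siOSBPL3 library was above every siNC library. The log2 fold change was 0.68 ± 0.11 (edgeR adjusted p = 0.00013). It was 0.19 and no longer called with the GC and length correction (edgeR adjusted p = 0.18, the highest of a range from 5.6e-09).

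Ratios of counts within a library do not depend on the scaling between libraries, and 5 were compared, each with an exact two-sided permutation test over the 3 against 3 libraries, for which 0.10 is the smallest possible p. The ratio of DNMT3B to DNMT3A counts was 2.00, 1.58 and 1.98 in siNC and 0.457, 0.372 and 0.381 in siOSBPL3. The balance of the de novo genes thus lay with DNMT3B in every siNC library and with DNMT3A in every siOSBPL3 library, by raw counts that are not corrected for transcript length. The log2 ratio differed by -2.20 (exact permutation p = 0.10, adjusted over the 5 ratios p = 0.10). UHRF2, the relative of UHRF1 that is not known to replace it in maintenance, moved the other way: the ratio of UHRF2 to UHRF1 was 1.15, 1.18 and 1.16 in siNC and 0.489, 0.370 and 0.476 in siOSBPL3 (log2 difference -1.40, exact permutation p = 0.10). With the GC and length correction that difference was -0.77, and the groups still did not overlap (exact permutation p = 0.10).

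Among the erasers, TET1 and TET3 fell and TET2 rose. TET proteins oxidise methylated cytosine, the first step of active demethylation. TET1 (chromosome 10, 68560337 to 68694487), a family member with a CpG-binding domain that is much studied in stem cells, stood at 44.2, 40.1 and 38.9 CPM in siNC and at 1.25, 0.793 and 1.09 CPM in siOSBPL3. These siOSBPL3 values rest on 45, 29 and 43 counts, against 1155 to 1452 counts in the siNC libraries. TET1 fell by 5.30 ± 0.16 on the log2 scale (edgeR adjusted p = 4.9e-11), to 2.54% of its siNC level, and 478 of 15506 genes had a lower log2 fold change. With the GC and length correction its log2 fold change was -4.33, and it was called in every alternative run.

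TET2 (chromosome 4, 105145875 to 105279803), often mutated in blood cancers, was the member with the fewest counts in siNC. It rose from 7.03, 7.29 and 6.98 CPM to 10.8, 11.02 and 12.2 CPM. The groups did not overlap, and the log2 fold change was 0.68 ± 0.14 (edgeR adjusted p = 0.00060) or 1.58 with the GC and length correction. TET3 (chromosome 2, 73983631 to 74135498), the form known from the fertilised egg, stood at 26.7, 27.2 and 26.0 CPM in siNC and at 16.1, 19.8 and 21.5 CPM in siOSBPL3. Its fall of 0.48 ± 0.12 (edgeR adjusted p = 0.0028) was called in all alternatives at a threshold of 0.05 (highest adjusted p 0.012) and was also called at 0.01 in the fit of all libraries.

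TET3 fell and TET2 rose, so their balance differed between the groups. The ratio of TET3 to TET2 counts was 3.79, 3.73 and 3.72 in siNC and 1.49, 1.80 and 1.76 in siOSBPL3, with no overlap (log2 difference -1.16, exact permutation p = 0.10; corrected for GC and length -2.18). Per kilobase of transcript, TET1 made up 52.4% ± 1.63 (SD, n = 3) of the summed TET level in siNC and 3.07% ± 0.904 in siOSBPL3. TET3 held 38.1% ± 1.22 and 62.1% ± 2.89, and TET2 9.53% ± 0.403 and 34.8% ± 2.00. The summed TET level went from 8.44 ± 0.330 to 3.71 ± 0.397 CPM per kilobase. The sum of the 3 DNMT genes was 43.98 ± 0.708 in siNC and 38.1 ± 6.82 CPM per kilobase in siOSBPL3, where replicate 2 (45.9) lay above and replicates 1 and 3 (33.1 and 35.4) below the siNC libraries. DNMT1 held 60.9% ± 0.754 of the DNMT sum in siNC and 82.9% ± 1.78 in siOSBPL3, and DNMT3B 26.7% ± 0.824 and 5.52% ± 0.963. These shares and sums were not corrected for GC and length, a correction that moved the log2 fold change of TET2 from 0.68 to 1.58.

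**Figure D2:**
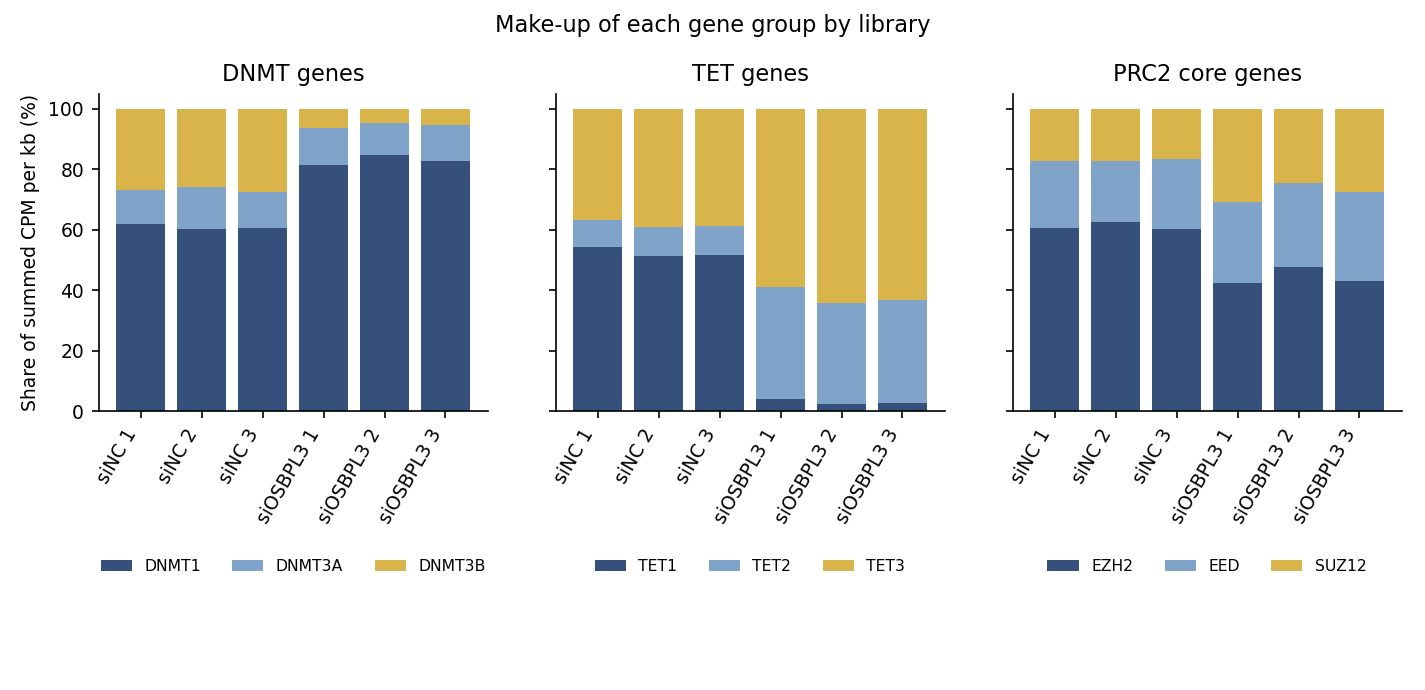
Stacked bars give, for each library, the share in percent of the summed CPM per kilobase of 3 DNMT genes, 3 TET genes and 3 PRC2 core genes. The GC and length correction was not applied. TET1 holds 51.2% to 54.2% of the TET sum in siNC and 2.29% to 4.06% in siOSBPL3, and DNMT3B shrinks from 25.8% to 27.5% of the DNMT sum to 4.63% to 6.54%.

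In PRC2 the catalytic subunit fell in every alternative run, while the calls of EED and SUZ12 depended on the processing. EZH2 (chromosome 7, 148807383 to 148884291), the methyltransferase, was measured at 190, 199 and 190 CPM in siNC and at 67.8, 96.0 and 96.0 CPM in siOSBPL3. Every siOSBPL3 library was far below every siNC library, replicate 1 the most. The log2 fold change was -1.16 ± 0.12 (edgeR adjusted p = 2.7e-06), or -1.001 without siOSBPL3 replicate 1 and -0.94 with the GC and length correction. EZH2 was called in every alternative run.

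EED (chromosome 11, 86244753 to 86287615), which reads the H3K27 mark and switches EZH2 on, stood at 49.9, 45.3 and 51.9 CPM in siNC and at 30.8, 39.98 and 47.1 CPM in siOSBPL3. The groups overlapped, since the highest siOSBPL3 library exceeded the lowest siNC library. The fall of 0.32 ± 0.13 on the log2 scale was at the edge of the threshold (edgeR adjusted p = 0.046). It was not called without siNC replicate 1 (0.093) or 3 (0.11), without siOSBPL3 replicate 1 (0.11) or 2 (0.10), or with library totals (0.059), and had the opposite sign with the GC and length correction (0.03, edgeR adjusted p = 0.82). The adjusted p of EED spanned 0.0046 to 0.82 over the alternatives.

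SUZ12 (chromosome 17, 31937007 to 32001038), the scaffold of the complex, stood at 89.5, 92.1 and 87.1 CPM in siNC and at 82.2, 82.5 and 103 CPM in siOSBPL3. The values overlapped and the log2 fold change was -0.0045 ± 0.098 (edgeR adjusted p = 0.97). With the GC and length correction it was 0.80 (edgeR adjusted p = 2.2e-06, the lowest of a range up to 0.999), so that no direction holds across the alternatives. SUZ12 transcripts have the lowest GC content of the 10 genes, 38.4% on average. Pseudogenes named for SUZ12, EZH2, EED, TET1 and DNMT3A are annotated in the genome, and how reads shared with such copies were counted is not given in the sources used here.

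The balance of the PRC2 core genes differed as well. EZH2 made up 61.2% ± 1.24 (SD, n = 3) of the summed level of the 3 core genes per kilobase in siNC and 44.3% ± 2.93 in siOSBPL3. SUZ12 held 17.1% ± 0.411 and 27.7% ± 3.11, and EED 21.7% ± 1.60 and 28.0% ± 1.31. The sum itself was 124 ± 0.685 CPM per kilobase in siNC and 76.7 ± 12.7 in siOSBPL3. These shares and sums were not corrected for GC and length. That correction moved the log2 fold change of SUZ12 from -0.0045 to 0.80 and that of EED from -0.32 to 0.03. With coding length in place of mean transcript length SUZ12 came before EED in siNC. EZH1, the relative that can take the place of EZH2 in cells that divide little, fell as well, from 26.1 ± 0.857 to 17.4 ± 3.80 CPM (log2 fold change -0.59 ± 0.14, edgeR adjusted p = 0.0022). The ratio of EZH1 to EZH2 counts was 0.139, 0.126 and 0.141 in siNC and 0.321, 0.163 and 0.153 in siOSBPL3, so the difference of 0.57 on the log2 scale (exact permutation p = 0.10) came mostly from siOSBPL3 replicate 1 and was 0.23 without it. With the GC and length correction the ratios of the groups overlapped (0.35, exact permutation p = 0.60).

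EZH2 is known to be expressed in dividing cells, so it was set beside MKI67, a marker of cells in cycle. MKI67 stood at 387 ± 12.8 CPM in siNC and at 267 ± 53.6 CPM in siOSBPL3 (log2 fold change -0.53 ± 0.12, edgeR adjusted p = 0.0015). Corrected for GC and length, MKI67 was at 0.10 and not called (edgeR adjusted p = 0.38). The ratio of EZH2 to MKI67 counts was 0.512, 0.502 and 0.484 in siNC and 0.296, 0.293 and 0.394 in siOSBPL3, lower in all siOSBPL3 libraries (log2 difference -0.62, exact permutation p = 0.10; corrected for GC and length -1.04).

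**Figure D3:**
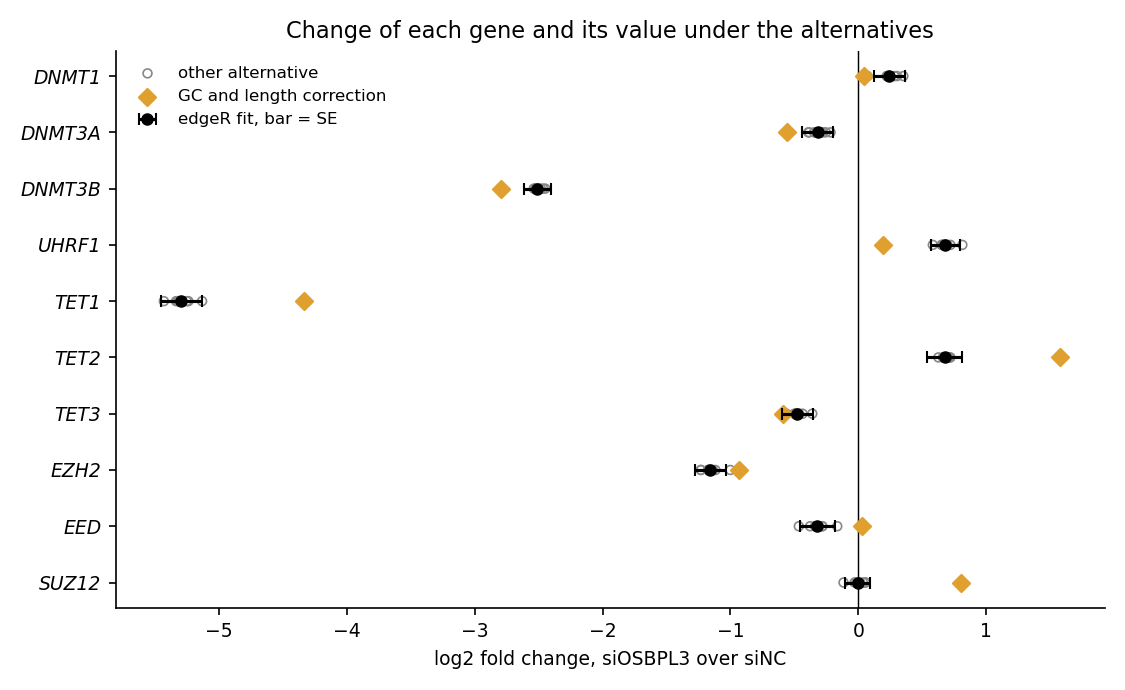
The log2 fold change of siOSBPL3 over siNC for each of the 10 genes (black point, bar = SE of the edgeR fit), with grey circles for the other tools, scalings, filters and left-out libraries and an orange diamond for the GC and length correction. TET1, DNMT3B and EZH2 stay below -0.90 in all of them, while the diamond moves SUZ12 from -0.0045 to 0.80, TET2 from 0.68 to 1.58 and UHRF1 from 0.68 to 0.19.

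Per kilobase of transcript the 10 genes spanned a wide range of levels. In siNC EZH2 was highest at 75.8 ± 1.93 CPM per kilobase, followed by EED (26.9 ± 1.86), DNMT1 (26.8 ± 0.153), SUZ12 (21.2 ± 0.588), UHRF1 (14.1 ± 0.460), DNMT3B (11.8 ± 0.385), DNMT3A (5.45 ± 0.649), TET1 (4.42 ± 0.298), TET3 (3.21 ± 0.0736) and TET2 (0.803 ± 0.0188). Of these neighbours only EED and DNMT1 overlapped. In siOSBPL3 the order was EZH2 (34.04 ± 6.41), DNMT1 (31.7 ± 6.37), UHRF1 (22.7 ± 3.76), EED (21.5 ± 4.50), SUZ12 (21.1 ± 2.83), DNMT3A (4.38 ± 0.425), TET3 (2.31 ± 0.334), DNMT3B (2.07 ± 0.138), TET2 (1.28 ± 0.0864) and TET1 (0.112 ± 0.0248). There EZH2 and DNMT1 overlapped, as did UHRF1, EED and SUZ12, and TET3 and DNMT3B. TET1 moved from the eighth to the last place. With coding length in place of mean transcript length SUZ12 came before EZH2 in siOSBPL3.

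The coefficient of variation among libraries was larger in siOSBPL3 than in siNC for all of the 10 genes except DNMT3A. DNMT1, whose siNC libraries varied by 0.571%, varied by 20.1% in siOSBPL3. The genes with the pattern most like a member over the 6 libraries, by Pearson's r of log2 CPM among 11205 genes, were S100PBP (0.9996) and COMTD1 (0.9995) for TET2, VOPP1 (0.9998) and CDCA8 (0.9996) for EZH2, and COPG1 (0.982) and WDR81 (0.976) for DNMT1. With 2 groups so far apart r mostly restates the group difference: 2967 genes reached over 0.95 with TET2 and 2277 with EZH2, but 14 with DNMT1.

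The partners of the DNA methylation machinery were mostly lower. All 18 tested genes of 19 listed were called, 6 higher and 12 lower, beside 80.2% called, 40.4% higher and 39.8% lower among all genes tested. Their median log2 fold change was -0.59, beside -0.00089 for all genes. Corrected for GC and length, 5 were higher and 11 lower, and the median was -0.32. CDCA7, which brings the remodeller HELLS to chromatin, fell from 203 ± 8.33 to 71.8 ± 12.1 CPM (-1.50 ± 0.11, edgeR adjusted p = 1.3e-07) and its relative CDCA7L fell by 1.36 ± 0.08 on the log2 scale. MAT2A, which makes the methyl donor S-adenosylmethionine, fell from 715 to 294 CPM (-1.28 ± 0.08). UHRF2 fell by 0.72 ± 0.10. TRIM28, the corepressor that recruits the histone methyltransferase SETDB1 to repeats, rose (1.51 ± 0.09, or 0.53 corrected for GC and length).

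Genes for proteins that read methylated or unmethylated CpG went both ways, with 8 of 14 higher, 5 lower and 1 not called (median 0.32). That is 92.9% called, beside 80.2% of all genes tested. The GC and length correction turned these counts to 5 higher and 7 lower (median -0.09). MBD3, a subunit of the NuRD complex, rose from 30.2 to 175 CPM (2.53 ± 0.11, and 1.53 with the correction). MBD2, which binds methylated CpG, rose by 1.66 ± 0.09 (1.17) and CXXC1, which binds unmethylated CpG, by 1.64 ± 0.11 (0.88). ZBTB33, the gene for the reader Kaiso, fell by 1.94 ± 0.09 on the log2 scale, and was at -1.26 with the correction.

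Downstream of the TET step, 7 of 18 genes of demethylation and base excision were higher, 6 lower and 5 not called (median 0.13). That is 72.2% called, beside 80.2% of all genes tested. With the GC and length correction 3 were higher and 10 lower (median -0.37). OGT, the glycosyltransferase that TET proteins bind, fell from 1189, 1232 and 1158 CPM in siNC to 163, 134 and 142 CPM in siOSBPL3. Its log2 fold change of -3.03 ± 0.09 (edgeR adjusted p = 6.2e-11) was -2.53 with the correction. GADD45A, a stress gene tied to demethylation, fell by 1.69 ± 0.09 on the log2 scale (-2.25 with the correction). The glycosylase gene NEIL2 rose by 1.72 ± 0.12 (1.28 with the correction).

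Around the PRC2 core, 8 of 11 tested accessory subunits and relatives were lower and 3 higher (median -0.68). All 11 were thus called, beside 80.2% of all genes tested. With the GC and length correction 6 were lower and 3 higher (median -0.33). The 3 that rose, EPOP (2.03 ± 0.10), PHF19 (1.60 ± 0.09) and PHF1 (1.38 ± 0.12), encode accessory subunits, and they were at 1.16, 1.13 and 0.63 with the correction. MTF2, a Polycomb-like protein as PHF1 and PHF19 are, fell by 1.33 ± 0.13 on the log2 scale (-0.63 with the correction). LCORL fell by 1.19 ± 0.11 on the log2 scale, but was at -0.02 with the correction (edgeR adjusted p = 0.87, the highest over its alternatives). In the sister complex PRC1, 8 of 23 genes were higher, 9 lower and 6 not called (median 0.06), which is 73.9% called. PCGF2 (1.77 ± 0.10) and RING1 (1.51 ± 0.09) were higher, and SCML1 (-1.92 ± 0.09) and PHC3 (-1.43 ± 0.09) lower. With the correction 11 were higher and 8 lower, and the values of these 4 were 1.06, 0.57, -1.30 and -0.67.

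A list of H3K27 demethylases and of genes taken here as antagonists of PRC2 held 13 genes. Of these 5 were higher and 8 lower (median -0.74), where 80.2% of all genes tested were called. Corrected for GC and length, 3 were higher and 7 lower (median -0.37). KMT2C, a histone H3K4 methyltransferase of enhancers, fell by 1.67 ± 0.12 on the log2 scale (-0.61 with the correction), ASXL2, a partner of the deubiquitinase BAP1, by 1.14 ± 0.09 (-0.51), and its relative ASXL1 by 0.81 ± 0.08. ARID1B, a subunit of the BAF remodeller, fell by 1.13 ± 0.10.

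**Figure D4:**
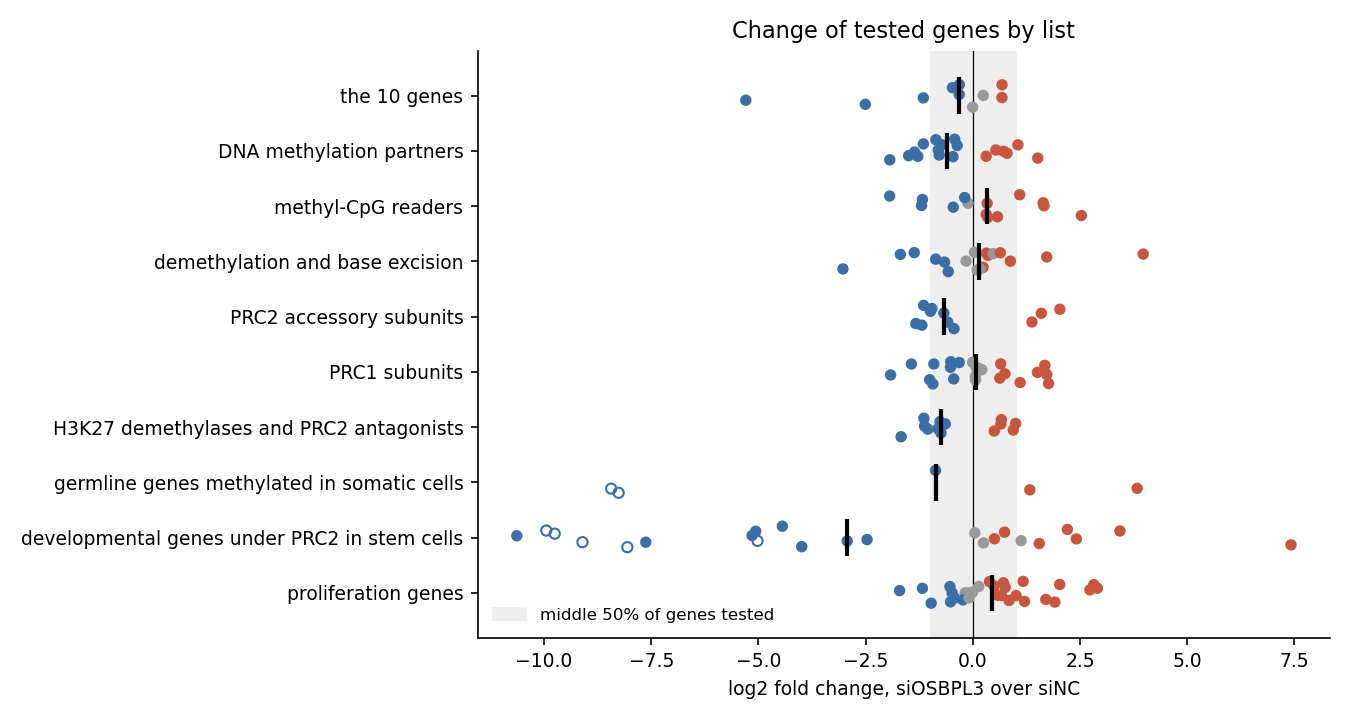
Each point is a tested gene at its log2 fold change of siOSBPL3 over siNC, by list, red if higher, blue if lower and grey if not called at an adjusted p of 0.05, with a black bar at the list median and a grey band for the middle 50% of all genes tested (-0.99 to 1.02). Open circles are genes with at most 3 counts in a group, whose fitted values depend on the prior count, and developmental genes reach farthest, with a median of -2.93.

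Genes known to be silenced by these systems were looked at next, with the limit that neither DNA methylation nor the H3K27 mark was measured. Of 42 developmental and tumour suppressor genes known as PRC2 targets in stem cells, 27 were in the table and 23 were tested. Of these 13 were lower, 7 higher and 3 not called, which is 87% called, beside 80.2% of all genes tested. Their median log2 fold change was -2.93, which is the same with genes at 0 set to their bound. Corrected for GC and length, 14 were lower and 5 higher. Of the 12 that averaged 5 CPM or more, 6 were lower and 5 higher (median -1.44). IRX3 (log2 fold change 7.42, or 6.43 with the correction) and TBX3 (2.41, or 2.38) were among the 7 that rose. The value of IRX3 was 8.53 without siNC replicate 2. The genes named next fell. CDKN2A, the cell cycle inhibitor of the INK4 locus, stood at 200, 204 and 209 CPM in siNC and at 0.166, 0.191 and 0.0253 CPM in siOSBPL3 (log2 fold change -10.64 ± 0.20, edgeR adjusted p = 1.9e-12). CDKN2A was near the floor in siOSBPL3, and its log2 fold change ran from -11.7 to -10.1 over the alternatives. Its neighbour CDKN2B stood at 86.2, 90.2 and 90.6 CPM and at 4.29, 3.99 and 3.99 CPM (-4.44 ± 0.10). The strand setting of the counting is not given, so reads of the antisense transcript of that locus cannot be told apart. FOXA2, a factor of endodermal tissues, fell by 2.93 ± 0.11 on the log2 scale (-3.60 with the GC and length correction). TBXT, the mesoderm factor brachyury, had 1130 counts over the siNC libraries and 2 over the siOSBPL3 libraries, a 663-fold lower level after scaling (95% interval 183 to 5478 for counting error alone). Genes such as TBXT passed the filter through siNC alone, which limits what the share called in this list can show.

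Germline genes that promoter methylation is known to keep silent in somatic cells were at low levels in both groups, with sums over the list of 9.22 to 10.2 CPM in siNC and 8.26 to 13.6 CPM in siOSBPL3. Of 34 listed, 12 were in the table and 5 passed the filter, 2 of them higher and 3 lower in siOSBPL3. All 5 were thus called, beside 80.2% of all genes tested. At such low levels a gene can pass the filter through 1 group alone, as TEX15 and MAGEB2 did. A call is then largely set by the filter, so this share is not a result about the list. TEX15 had 119 counts over the siNC libraries and none over the siOSBPL3 libraries, which is at least 46.5-fold lower with 3 counts taken as the group's floor, and MAGEB2, with 106 counts and none, was at least 41.4-fold lower. STK31 rose from 0.136 to 1.98 CPM (log2 fold change 3.83 ± 0.54, edgeR adjusted p = 3.1e-05), and PIWIL1 from 2.53 to 6.37 CPM (1.33 ± 0.24).

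Proliferation genes went both ways, and 80% of them were called, beside 80.2% of all genes tested. Of 30 genes, 16 were higher, 8 lower and 6 not called (median 0.44, and 0.07 with the GC and length correction, with 12 higher and 7 lower). Of the genes named here, CCNE1 (2.73 ± 0.13), E2F2 (2.82 ± 0.15) and RRM2 (2.03 ± 0.12) rose. UHRF1 rose too, but was at 0.19 and not called with the GC and length correction. TOP2A fell by 1.71 ± 0.07 on the log2 scale, and was at -0.83 with the correction. The summed level of the list was 4962 to 5001 CPM in siNC and 4267, 5702 and 5529 CPM in siOSBPL3, lowest in siOSBPL3 replicate 1. Of the 10 genes, all but DNMT3B and TET1 also had their lowest siOSBPL3 value in that library. The part of proliferation and of that library in these results was not tested.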

How the data were processed

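RNA-seq libraries of cells labelled SW620 were compared, 3 siNC and 3 siOSBPL3. The authors deposited raw read counts per gene symbol. HISAT2 2.2.1, HTSeq 0.13.5 and GRCh38 (hg38) are named, per the submitters' processing notes. Annotation, strand setting and counting options are not given in the sources used here. Totals were 30040020 to 39701340 counts, which set the precision of low genes.

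Genes were kept by filterByExpr (minimum count 10, total 15), scaled by TMM and tested on group alone with edgeR 4.0.16 (robust quasi-likelihood, two-sided, R 4.3.3), adjusted by Benjamini-Hochberg over all 15506 genes tested. The SE is the log2 fold change over the root of F. The test was checked on simulated data in which few genes differed. That check therefore does not cover a difference over most genes, as was seen here. Alternatives were DESeq2 1.42.0, limma-voom 3.58.1, other scalings (RLE, library totals), other filters (none, or 5 CPM on average), calling at 0.01, a replicate block, leaving out each library, and smooth terms per library in transcript GC and length (fitted with mgcv 1.9.3 on GENCODE 29 models for 89.1% of genes tested). Levels per kilobase used the mean length of coding transcripts. Replicates differed by more than sampling noise in every pair (lowest chi-square over its degrees of freedom 2.98). Members and lists were chosen with earlier results of these data known. Beside the members, up to 4 genes of the smallest adjusted p per list and the genes in ratios are named, apart from 1 gene that is not reported here. CDX1, CDX2, VIL1, EPCAM, KRT8, KRT20, LUM, PTPRC, CD3E, CD68, LYZ, CD14, ITGAM, MTF2, IRX3 and TBX3 were named after their values were seen.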

Additional observations from a re-analysis of the deposited data

How the results depend on the processing

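The log2 fold changes of the 10 genes gave 150 values under alternatives, of which 129 kept direction and call, 13 lost the call, 2 gained it and 6 had the other sign. DNMT3B, TET1, TET2, TET3 and EZH2 kept both in every alternative run, and UHRF1 in all but the GC and length correction. The opposite sign was seen for EED with that correction (0.032), and for SUZ12 with it (0.80), with library totals (0.037) and without siNC replicate 2 (0.014) or siOSBPL3 replicate 1 (0.058) or 2 (0.054). With 1 library left out SUZ12 ran from -0.11 to 0.058, and the cause was not tested. With a mean of at least 5 CPM, 0 germline genes (none passed that filter) and 11 of 12 developmental genes were called, 5 higher and 6 lower (median -1.44). The highest level per kilobase over the lowest in siNC was 94.4-fold, and 105-fold with the longest transcript or 73.2-fold with coding length.

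Replicate numbers did not pair the libraries: deviations of same-numbered libraries correlated at -0.0061, -0.0088 and -0.0043. With the replicate block 2 members were higher and 6 lower, and no call of a member differed. Depth limits the values of genes with few counts in a group, such as TBXT with 2 counts in siOSBPL3 or the germline genes.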
